A study of Mus musculus with 6 samples.

Results

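The dystrophin glycoprotein complex was followed through 8 of its genes, Dmd, Dag1, Sgca, Sgcb, Sgcd, Dtna, Sspn and Lama2, which were picked by gene name from the 54093 genes of the expression table. RNA-seq had been performed on right atrium (RA) at postnatal day 21 (P21) from C57BL/6 mice of WT genotype. The 3 sham libraries came from sham-operated animals and the 3 VO libraries from animals in which volume overload (VO) had been produced at P7 by an aortocaval fistula (ACF), an opening between the abdominal aorta and the inferior vena cava. Pups of either sex had been randomized to the operations, and neither the number of animals in a library nor its sex was given. Each library held 15963082 to 17237903 fragments on genes. All 8 genes passed the filter on low values, a mean of at least 1 FPKM over the 6 libraries, which 12627 genes passed in all. FPKM are fragments scaled to gene length in kilobases and to a library size, which here was not the total of fragments on genes.

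The complex joins the actin cytoskeleton of a muscle fibre to the basement membrane around it. Dystrophin binds actin inside the cell and β-dystroglycan at the membrane, α-dystroglycan on the outside binds laminin, and sarcoglycans and sarcospan hold the link together while dystrobrevin and syntrophins form a signalling scaffold below it. Loss of dystrophin, of a sarcoglycan or of the laminin α2 chain causes muscular dystrophy, and the heart is affected in several of these diseases.

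VO and sham RAs differed most in Sgca and Dtna, which encode α-sarcoglycan and α-dystrobrevin. The fitted level in VO was 0.643 of that in sham for Sgca and 0.685 of it for Dtna, and for both genes every VO library lay below every sham library. Dmd, Dag1 and Sspn, which encode dystrophin, dystroglycan and sarcospan, overlapped between the groups. Lama2 was the member with the highest fitted fold change in VO, and its groups overlapped as well. None of the 8 members passed limma's moderated test with Benjamini-Hochberg adjustment over all 12627 genes. In all, 1 gene passed it, or 0.00792% of those tested. The study, which used DESeq2 at an adjusted p under 0.05, reported far more differing genes, and the reason for this difference was not tested. At an unadjusted p under 0.05, 2 of the 8 members, Sgca and Dtna, were lower in VO, against 8.08% of all tested genes. No member was higher at this threshold, against 3.89% of all tested genes. The median log2 fold change of the 8 members was -0.10, and that of all tested genes was -0.01. The library groups did not overlap, with VO lower, in 3 of the 8 members (Sgca, Sgcb and Dtna), against 12.9% of all tested genes. They did not overlap with VO higher in 0 of the 8 members, against 8.25% of all tested genes. Directions depended on the scaling of the libraries: of the genes at an unadjusted p under 0.05, 67.5% were lower in VO here, 40.1% with scaling by fragment totals, 30.9% with TPM and 1.42% after centring on cardiomyocyte markers, since these scalings put the median of all tested genes at 0.08, 0.13 and 0.47 (log2). Relative to the median of all genes, that of the members lay at -0.09 in the fit reported and with fragment totals. It lay at -0.10 with TPM and at -0.09 after centring. In each of these fits 6 of the 8 members were below the median of all genes. These scalings shift all genes of a library alike, so that the position of the members could hardly change between them. It was -0.05 with quantile normalization and -0.10 with trends in length and expression removed. In both of these, 5 of the 8 members were below the median of all genes.

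Before the single genes are described, 3 facts on the libraries bear on them. The 12 cardiomyocyte markers, headed by the atrial light chain gene Myl7 and the cardiac actin gene Actc1, summed to 18445 to 22518 FPKM in sham and to 9272 to 15526 FPKM in VO, and 6 of them (Myl7, Actc1, Myl4, Tnnt2, Actn2 and Mybpc3) were lower in VO at an unadjusted p under 0.05, a threshold met with VO lower by 8.08% of all tested genes. Leukocyte markers summed to 199 to 240 FPKM in sham, to 231 and 311 FPKM in VO 2 and VO 3 and to 1185 FPKM in VO 1, the library with the lowest cardiomyocyte sum. Adipocyte markers summed to 380 FPKM in VO 3, with Ucp1 alone at 254 FPKM, and to at most 1.05 FPKM in each of the other libraries. In whole tissue, fewer cardiomyocytes and less of an RNA per cardiomyocyte cannot be told apart.

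**Figure D1:**
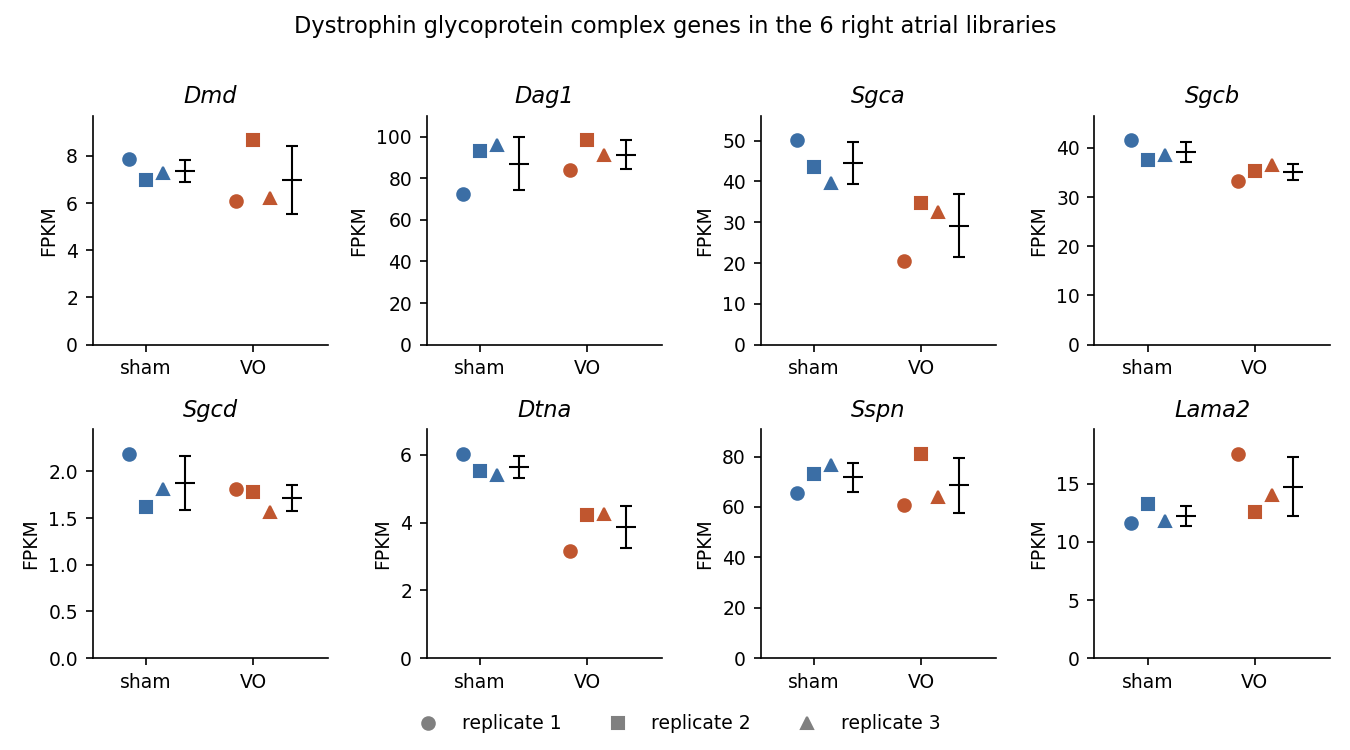
FPKM (vertical axes, from 0) of the 8 members in the 3 sham (blue) and 3 VO (orange) libraries, with the mark giving the replicate and the black bars the group mean ± SD. All VO libraries lie below all sham libraries in the panels of Sgca (at most 34.7 against at least 39.7 FPKM), Sgcb (36.5 against 37.6) and Dtna (4.25 against 5.42), and the groups overlap in the other 5 panels.

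The members covered a wide range of levels. Per length, Dag1 had the highest mean over the 6 libraries with 89.1 FPKM, above 96.8% of tested genes, followed by Sspn with 70.2 FPKM. Sgcb and Sgca lay at 37.1 and 36.8 FPKM, Lama2 at 13.5, Dmd at 7.18, Dtna at 4.76 and Sgcd at 1.80 FPKM, the last above 13.5% of tested genes. Within sham, Dag1 and Sspn overlapped, as did Sgca and Sgcb, and the libraries of each other pair of neighbours in this order were apart. In VO, Sgca and Sgcb overlapped, and all other neighbours were apart, Dag1 and Sspn included. Fragments behind these values ran from 212 to 281 for Sgcd up to 7141 to 10185 for Dag1, so that counting error alone came to 6.87% in the thinnest library of Sgcd and to 1.18% in that of Dag1.

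Dmd is the gene of dystrophin, the actin-binding rod protein at the inner face of the sarcolemma. It spans X:82948870-85206141 on the plus strand of GRCm38 (ENSMUSG00000045103) and has several promoters, whose transcripts are summed in its single row. The 250 bases before the first of its 2 starts in RefSeq (GRCm38.p6, chrX:82948620-82948869, plus strand) are shown because motifs of muscle genes can be read in them. Capitals mark E-boxes (CANNTG, the core bound by basic helix-loop-helix factors), a CArG box (bound by SRF) and a MEF2 site, on either strand.
Dmd: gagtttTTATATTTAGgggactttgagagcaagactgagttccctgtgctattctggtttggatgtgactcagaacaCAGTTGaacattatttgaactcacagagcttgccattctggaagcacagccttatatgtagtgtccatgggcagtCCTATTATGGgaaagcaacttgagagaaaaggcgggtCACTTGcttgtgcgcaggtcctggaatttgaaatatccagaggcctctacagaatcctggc
Counted with the start base as 0, the MEF2 site TTATATTTAG begins at -244, the CArG box CCTATTATGG at -98 and the 2 E-boxes at -173 and -61, and a further E-box lies after the start at 39. Of 32851 mouse promoter windows of 300 bases, 1.63% hold a CArG box and 3.19% a MEF2 site, while 72.3% hold an E-box. The second start, inside the gene, holds 3 GC boxes (GGGCGG, or CCGCCC on the other strand, of which 2 overlap) and none of the other motifs. A match of letters is a description of the window and no binding site.

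Dmd was read at 7.88, 6.97 and 7.26 FPKM in sham 1, 2 and 3 and at 6.09, 8.65 and 6.21 FPKM in VO 1, 2 and 3. VO 2 had the highest of the 6 values and VO 1 and VO 3 the lowest, so that the groups overlapped and the VO libraries enclosed the sham libraries. The log2 fold change was -0.09 ± 0.16 (SE, n = 3 against 3, 95% interval -0.46 to 0.27, adjusted p = 0.785 by limma). Without VO 2 the log2 fold change was -0.25, and VO 2 alone lay 0.23 above sham. Between libraries of the same group, the coefficient of variation was 6.35% in sham and 20.7% in VO, with 2430 to 3356 fragments per library.

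Dtna encodes α-dystrobrevin, which binds dystrophin and syntrophins at the cytoplasmic side. Its row lies at 18:23415135-23659715, plus strand (ENSMUSG00000024302). It was read at 6.03, 5.52 and 5.42 FPKM in sham 1 to 3 and at 3.15, 4.22 and 4.25 FPKM in VO 1 to 3. Every VO library lay below every sham library, VO 1 farthest, and the values of VO 2 and VO 3 were nearly equal. The log2 fold change was -0.55 ± 0.14 (SE, n = 3 against 3, 95% interval -0.89 to -0.21), with an unadjusted p of 0.00674 and an adjusted p of 0.373 by limma. The unadjusted p was under 0.05 in 19 of 20 alternatives with at least 2 libraries a group that differ from the fit reported, among them each library left out in turn, where the log2 fold change ran from -0.62 to -0.41. VO 2 alone, the VO library nearest to sham in the cardiomyocyte and leukocyte markers, lay 0.41 below sham on the log2 scale. Exons of Dtna share 90 bases, 0.53% of their length, with Gm47898 on the opposite strand, and whether counting used the strand was not stated.

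Dystroglycan, the product of Dag1 (9:108204634-108263958, minus strand, ENSMUSG00000039952), is cut into the laminin-binding α chain and the transmembrane β chain. Dag1 was read at 72.2, 92.9 and 95.9 FPKM in sham 1 to 3 and at 84.1, 98.1 and 91.3 FPKM in VO 1 to 3. The groups overlapped, and sham 1 was the lowest of the 6 libraries. VO differed from sham by a log2 fold change of 0.08 ± 0.14 (SE, n = 3 against 3, 95% interval -0.26 to 0.41, adjusted p = 0.815 by limma), and it turned to -0.05 without sham 1. Both RefSeq starts of Dag1 lie in GC-rich windows (69.7% and 75.3% G and C) with 3 and 4 GC boxes and 1 E-box each. The 2 windows overlap and share the E-box and 3 of the GC boxes, and 35.7% of all promoter windows hold a GC box.

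Sgca (α-sarcoglycan) and Sgcb (β-sarcoglycan) are subunits of 1 assembly and had nearly the same level over the 6 libraries, but their values differed in how far VO lay from sham. The 250 bases before the start of each, from RefSeq (GRCm38.p6, both on the minus strand), are set beside each other, with E-boxes and GC boxes in capitals. That of Sgca is chr11:94976328-94976577 and that of Sgcb chr5:73647738-73647987.
Sgca: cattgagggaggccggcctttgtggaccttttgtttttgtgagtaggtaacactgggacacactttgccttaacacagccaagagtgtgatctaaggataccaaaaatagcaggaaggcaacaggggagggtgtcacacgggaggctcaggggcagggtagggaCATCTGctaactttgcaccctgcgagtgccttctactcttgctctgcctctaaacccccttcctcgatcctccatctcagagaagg
Sgcb: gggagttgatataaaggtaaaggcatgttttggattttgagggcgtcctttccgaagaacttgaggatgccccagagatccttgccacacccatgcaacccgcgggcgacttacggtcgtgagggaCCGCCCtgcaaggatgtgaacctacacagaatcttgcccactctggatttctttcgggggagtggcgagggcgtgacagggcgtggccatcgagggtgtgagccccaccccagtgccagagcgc
The window of Sgca holds an E-box, CATCTG, beginning at -86 and a further one after the start at 26, with no GC box, 4 CpG and 52.7% G and C in 300 bases. The Sgcb window holds 1 GC box beginning at -124, no E-box, 24 CpG and 62.7% G and C. Neither window holds a CArG box or a MEF2 site as spelled here. Of all promoter windows, 72.3% hold an E-box and 35.7% a GC box, and a relation of these motifs to the values was not tested.

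Sgca (11:94962791-94976327, minus strand, ENSMUSG00000001508) was read at 50.01, 43.6 and 39.7 FPKM in sham 1 to 3 and at 20.4, 34.7 and 32.4 FPKM in VO 1 to 3. All 3 VO libraries were below all 3 sham libraries, with VO 1 far below the other VO libraries and sham 1 the highest. The mean was 44.5 ± 5.20 FPKM in sham and 29.2 ± 7.68 FPKM in VO (SD, n = 3 each). The log2 fold change was -0.64 ± 0.21 (SE, 95% interval -1.14 to -0.13), with an unadjusted p of 0.0201 and an adjusted p of 0.404 by limma. Its size rested in part on VO 1, since it was -0.40 (unadjusted p = 0.0208 by limma) without that library. Without sham 1 it was -0.55 with an unadjusted p of 0.0666 by limma, and VO 2 alone lay 0.35 below sham on the log2 scale. Sgca has the fewest fragments after Sgcd, 642 to 1350 per library, with a counting error of 3.95% in the thinnest, against coefficients of variation between libraries of 11.7% in sham and 26.3% in VO.

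Sgcb (5:73632749-73647790, minus strand, ENSMUSG00000029156) was read at 41.5, 37.6 and 38.5 FPKM in sham 1 to 3 and at 33.3, 35.3 and 36.5 FPKM in VO 1 to 3. The groups did not overlap, but the gap between the lowest sham and the highest VO library was small beside the spread within a group. For Sgcb the log2 fold change was -0.16 ± 0.10 (SE, n = 3 against 3, 95% interval -0.39 to 0.07, adjusted p = 0.485 by limma). Sgcb was the steadiest member, with coefficients of variation of 5.16% in sham and 4.54% in VO.

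Sgcd (11:46896253-47988969, minus strand, ENSMUSG00000020354) encodes δ-sarcoglycan. It was read at 2.19, 1.62 and 1.81 FPKM in sham 1 to 3 and at 1.82, 1.78 and 1.56 FPKM in VO 1 to 3, the lowest level of the 8 genes. The groups overlapped, and sham 1 stood highest. The log2 fold change was -0.11 ± 0.18 (SE, n = 3 against 3, 95% interval -0.54 to 0.32, adjusted p = 0.777 by limma), the widest interval after that of Sgca.

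Sspn (6:145931641-145965223, plus strand, ENSMUSG00000030255) encodes sarcospan, a small membrane protein bound to the sarcoglycans. It was read at 65.5, 73.1 and 76.7 FPKM in sham 1 to 3 and at 60.9, 81.0 and 63.8 FPKM in VO 1 to 3. As for Dmd, VO 2 was the highest library and VO 1 and VO 3 were the lowest, so that the groups overlapped. For Sspn the log2 fold change was -0.07 ± 0.14 (SE, n = 3 against 3, 95% interval -0.41 to 0.26, adjusted p = 0.817 by limma), and its sign turned under several scalings and without VO 1. Exons of Sspn share 69 bases, 1.38% of their length, with Sspnos on the opposite strand.

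Lama2 encodes the laminin α2 chain of the muscle basement membrane, the extracellular ligand of the complex, and is made by fibroblasts as well as muscle cells. Of the 7 members whose windows were searched, Lama2 and Dmd hold a CArG box. The 250 bases before the RefSeq start of Lama2 (GRCm38.p6, chr10:27616943-27617192, minus strand) are shown for this reason, with the CArG box and the E-box in capitals.
Lama2: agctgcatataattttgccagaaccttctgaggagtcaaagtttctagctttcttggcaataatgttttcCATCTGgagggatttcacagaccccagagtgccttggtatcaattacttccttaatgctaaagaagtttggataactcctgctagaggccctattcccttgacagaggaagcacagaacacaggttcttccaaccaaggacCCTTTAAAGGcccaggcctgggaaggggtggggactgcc
The CArG box CCTTTAAAGG begins at -39 and the E-box CATCTG at -180, and a GC box lies after the start at 17. Lama2 (10:26980036-27619758, minus strand, ENSMUSG00000019899) was read at 11.7, 13.3 and 11.8 FPKM in sham 1 to 3 and at 17.6, 12.6 and 14.0 FPKM in VO 1 to 3. VO 1 was the highest library and VO 2 lay inside the sham range. The fit gave a log2 fold change of 0.25 ± 0.14 (SE, n = 3 against 3, 95% interval -0.08 to 0.59, unadjusted p = 0.119 and adjusted p = 0.466 by limma). It was 0.12 without VO 1 and 0.36 without VO 2, where the unadjusted p by limma was 0.0471. Fibroblast markers moved with it and summed to 1029 to 1054 FPKM in sham and to 1459, 1050 and 1281 FPKM in VO 1, 2 and 3, so that both were highest in VO 1 and lowest among VO libraries in VO 2. The higher sums of VO 1 and VO 3 lay mostly in the collagen genes of the list. Dcn (-0.03), Dpt (0.03) and Pdgfra (-0.01) had log2 fold changes near 0. Those of Lum (0.11) and Tcf21 (0.10) lay above 0 with overlapping groups, and both genes were highest in VO 1. Of the 8 fibroblast markers, 2 (Col3a1 and Col1a2) were higher in VO at an unadjusted p under 0.05, against 3.89% of all tested genes. The part of fibroblasts in the Lama2 values was not tested. Exons of Lama2 share 631 bases, 3.86% of their length, with Gm48084 on the opposite strand.

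**Figure D2:**
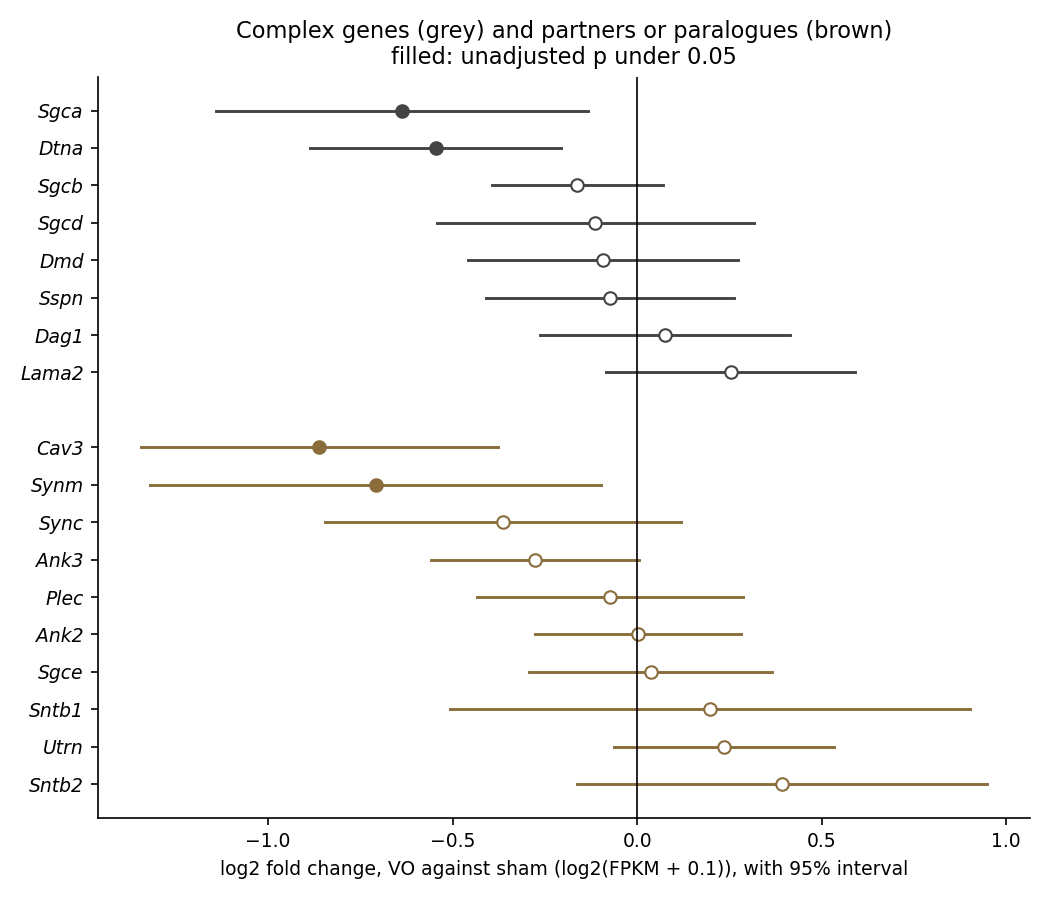
Log2 fold changes of VO against sham with 95% intervals (horizontal axis, log2(FPKM + 0.1)) for the 8 members (grey) and the 10 tested partner or paralogue genes of the complex (brown), with filled points at an unadjusted p under 0.05. Sgca (-0.64) and Dtna (-0.55) are the filled members, Cav3 and Synm the filled partners, and the intervals of the other genes include 0.

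Ratios of members within a library do not depend on how the libraries were scaled to each other. The ratio of Sgca to Sgcb was 1.21, 1.16 and 1.03 in sham 1 to 3 and 0.612, 0.985 and 0.888 in VO 1 to 3. Sgca FPKM were thus above those of Sgcb in 3 of 3 sham libraries and below them in 3 of 3 VO libraries. The ratios of sham 3 and VO 2 were close to 1, beside a counting error of up to 3.95% for Sgca. Where 1 falls also depends on the gene lengths used for FPKM, 1735 and 4052 bases, so that the side of 1 is not read as a result. The exact two-sided permutation test of the log ratio gave p = 0.1, the smallest p this test can give with 3 libraries against 3. The ratio of Dmd to Dtna was 1.31, 1.26 and 1.34 in sham and 1.93, 2.05 and 1.46 in VO. Sham libraries were close together and all VO libraries lay above them (exact permutation p = 0.1). Among the 28 pairs of members, 14 had ratios that did not overlap between the groups, or 50% against 20.7% of all 78056265 pairs of the 12495 tested genes above 0 in every library. Sgca took part in 6 of the 14 and Dtna in 6, each with every member but the other of this pair. Among the 15 pairs without either gene, 2 did not overlap (Dag1 with Sgcb, and Sgcb with Lama2). In both of these pairs, the ratios of the nearest sham and VO libraries differed by less than the counting error of Sgcb. The ratio of Sgca to Dtna was 7.33 to 8.30 in sham and 6.47 to 8.23 in VO, with overlap. The pairs share genes and libraries and are no independent counts, and the ratios were looked at with the values of the genes known.

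**Figure D3:**
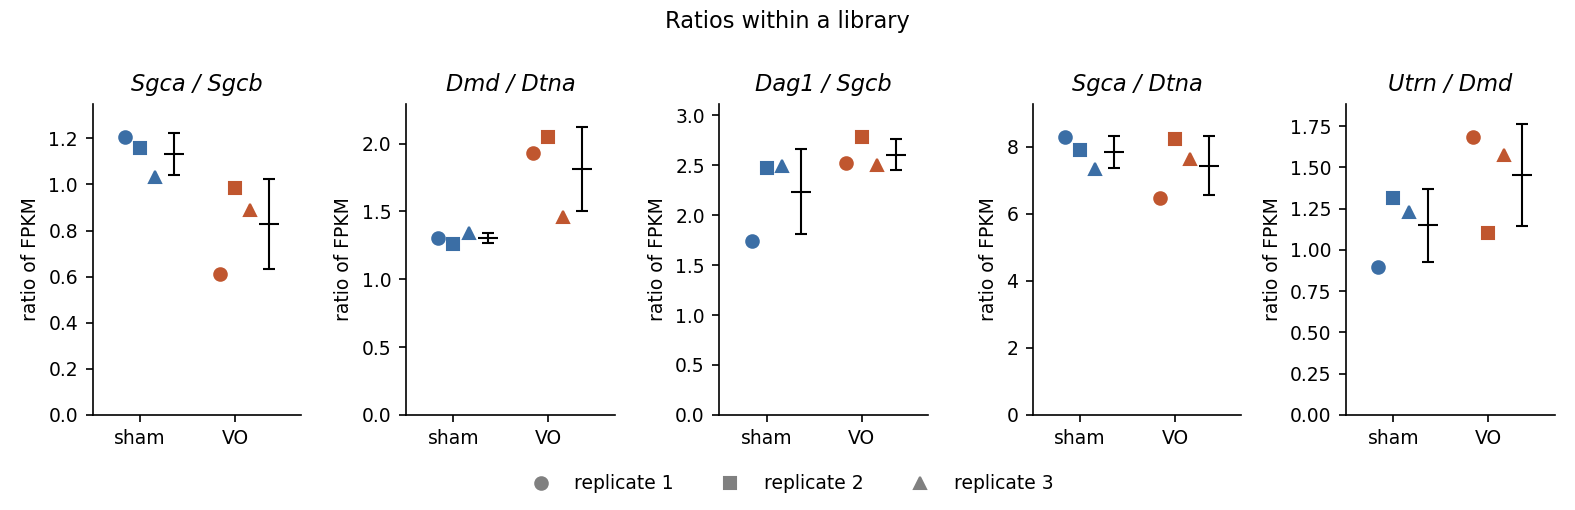
Ratios of FPKM within each library (vertical axes, from 0) for 5 pairs of genes, in the 3 sham (blue) and 3 VO (orange) libraries, with black bars for the mean ± SD. Sgca to Sgcb is lower in every VO library than in every sham library. Dmd to Dtna is higher in every VO library, and Sgca to Dtna and Utrn to Dmd overlap. Dag1 to Sgcb is also higher in every VO library, but its nearest sham and VO libraries differ by less than the counting error of Sgcb.

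The make-up of the sarcoglycan group was taken as shares of the FPKM summed over Sgca, Sgcb, Sgcd and Sgce (ε-sarcoglycan, which is made in many cell types). The sum was 89.7 ± 7.76 FPKM in sham and 70.2 ± 8.75 FPKM in VO (SD, n = 3 each). Sgca took 49.5 ± 1.88% of it in sham and 41.0 ± 6.25% in VO, with the lowest share, 33.9%, in VO 1. Sgcb took 43.8 ± 1.93% in sham and 50.3 ± 4.67% in VO. The larger share was that of Sgca in each sham and that of Sgcb in each VO library, which restates the ratio of these genes. Which share is larger depends likewise on the gene lengths and is not read as a result. Shares of Sgca and Sgcb were close in sham 3 (47.3% and 45.9%) and in VO 2 (45.6% and 46.3%). The share of Sgcd was 1.87% to 3.02% over the 6 libraries, and that of Sgce was 4.68 ± 0.27% in sham and 6.23 ± 1.29% in VO.

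Profiles of the members over the 6 libraries were compared by the root mean square (RMS) difference of centred log2 values. The smallest differences were those of Dmd with Sspn (0.120), Dag1 with Sspn (0.123), Sgca with Dtna (0.126) and Sgcb with Sgcd (0.128), and the largest was that of Sgca with Lama2 (0.597). Lama2 had no close partner, its nearest being Dag1 (0.249). Over all 12627 tested genes, those nearest to Dmd were Smpd2 (0.0389), Clu (0.0515) and Ambra1 (0.0525). Each was highest in VO 2 and lowest in VO 1, as Dmd was. Those nearest to Dag1 were Adcy4 (0.0316), Ralgapa2 (0.0369) and Lmtk2 (0.0383), each lowest in sham 1 and highest in VO 2. These likenesses rest on 6 libraries and carry no test.

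**Figure D4:**
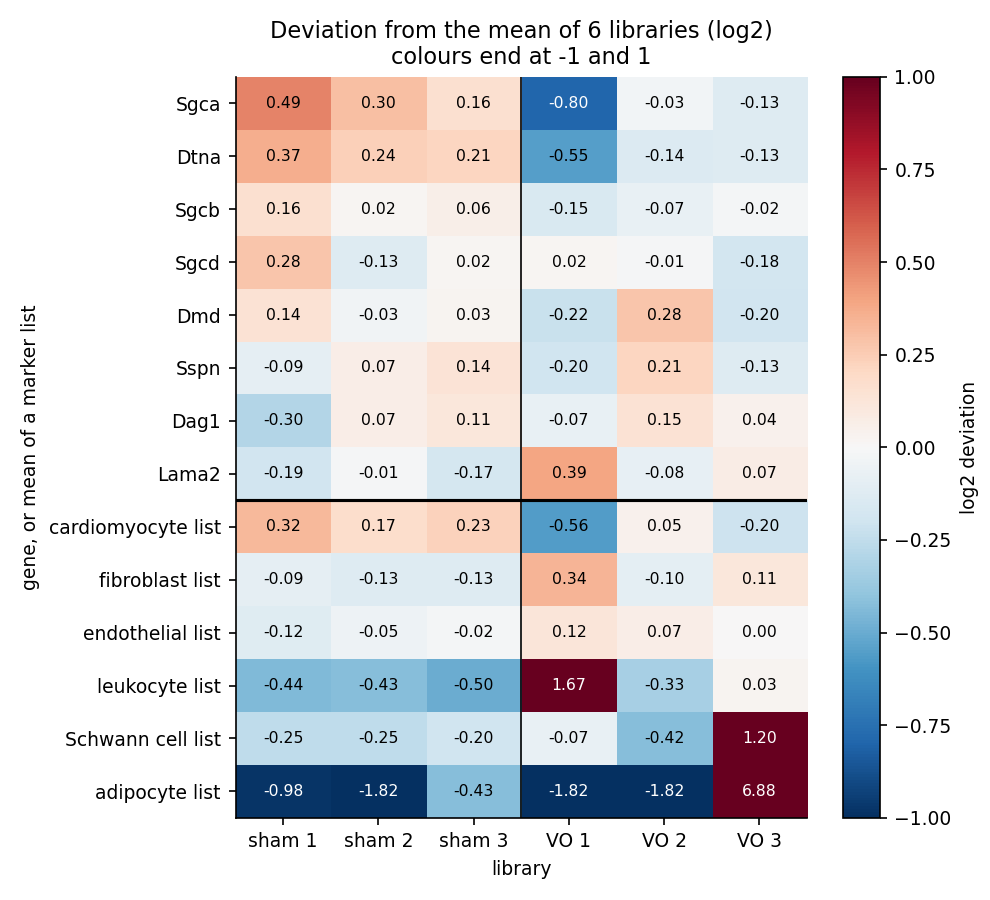
Deviation of each library from the mean of the 6 libraries (log2, colour ending at -1 and 1, value printed in each cell) for the 8 members above the black line and for the mean of 6 cell type marker lists below it. Of the 6 libraries, VO 1 holds the lowest value of Sgca (-0.80), of Dtna (-0.55) and of the cardiomyocyte list (-0.56). It also holds the highest value of Lama2 (0.39), of the fibroblast list (0.34) and of the leukocyte list (1.67), while VO 3 holds the high adipocyte list (6.88).

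Sgca and Dtna followed the order of the cardiomyocyte markers in part. The mean of the 12 markers deviated from its 6-library mean by 0.32, 0.17 and 0.23 in sham 1 to 3 and by -0.56, 0.05 and -0.20 in VO 1 to 3 (log2). Sgca deviated by 0.49, 0.30 and 0.16 and by -0.80, -0.03 and -0.13, and Dtna by 0.37, 0.24 and 0.21 and by -0.55, -0.14 and -0.13. When each library was centred on these markers, the VO minus sham difference was -0.16 for Sgca, -0.07 for Dtna and between 0.32 and 0.73 for the other 6 members, where the median of all tested genes was 0.47, and 0 members were lower at an unadjusted p under 0.05 by limma, against 0.523% of all tested genes. Relative to cardiomyocyte markers, 3 of the 8 members, Lama2 (0.73), Dag1 (0.56) and Sspn (0.41), were higher in VO at an unadjusted p under 0.05 by limma, against 36.2% of all tested genes, a share near that of the members. The share of the Sgca and Dtna differences that goes with the number of cardiomyocytes was not tested. Skeletal muscle, which also expresses the complex, was nearly absent, with Myh1 and Myod1 at 0 in all 6 libraries and 8 markers that summed to 4.40 to 5.04 FPKM in sham and 1.60 to 2.69 FPKM in VO. The ventricular light chain gene Myl2 was read at 60.4, 2.02 and 56.0 FPKM in sham 1 to 3 and at 6.95, 1.54 and 20.6 FPKM in VO 1 to 3, far below the atrial Myl7 in each library.

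Other subunits and partners of the complex were taken as a list of 16 genes, of which 10 were tested. Of these, 5 were lower and 5 higher in VO, 2 were lower and 0 higher at an unadjusted p under 0.05 (all tested genes: 8.08% and 3.89%), and the median log2 fold change was -0.04, against -0.01 over all tested genes. Cav3, the gene of the caveolin of muscle caveolae and T-tubules, had a log2 fold change of -0.86 (unadjusted p = 0.00396 by limma), and Synm, the gene of the intermediate filament protein synemin, one of -0.71 (unadjusted p = 0.029 by limma). Synm moved to -0.45 without VO 1 and lost the threshold there, with TPM, after centring and without sham 2, sham 3 or VO 3, and Cav3 lost it after centring (-0.38). Cav3 and Ank3 of this list were picked by the study from these same libraries, so that their values here are not independent evidence of its direction. By qRT-PCR the study also reported both as significantly lower in VO. Ank3 had a log2 fold change of -0.28 here (unadjusted p = 0.0539 by limma). Utrn, the gene of the dystrophin paralogue utrophin, was read at 7.08, 9.17 and 8.93 FPKM in sham 1 to 3 and at 10.3, 9.51 and 9.77 FPKM in VO 1 to 3, higher in each VO than in each sham library (log2 fold change 0.24, unadjusted p = 0.103 by limma). Of the 10 tested genes of the list, the groups did not overlap in 3 with VO lower and in 1, Utrn, with VO higher (all tested genes: 12.9% and 8.25%). The ratio of Utrn to Dmd was 0.898, 1.32 and 1.23 in sham and 1.68, 1.10 and 1.57 in VO and overlapped (exact permutation p = 0.3). Sgcz, the gene of ζ-sarcoglycan, was at 0 in all 6 libraries.

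Among 14 further matrix ligands and laminin chains, 10 were tested, of which 3 were lower and 7 higher in VO, and the list had a median of 0.18 on the log2 scale. Lamb3, a laminin β chain best known from epithelia, was lower at an unadjusted p under 0.05 (log2 fold change -0.58, unadjusted p = 0.019 by limma), and none was higher at this threshold (all tested genes: 8.08% lower and 3.89% higher). Lamb3 lost it with TPM, after centring and without sham 1, sham 3, VO 1 or VO 3 (unadjusted p of 0.0515 to 0.066 by limma for the last 4), while Lamc1 was higher at this threshold with TPM, quantile normalization, fragment totals, trends removed and centring. The most abundant ligand genes, Bgn (0.35), Lamc1 (0.23), Lamb2 (-0.22) and Hspg2 (0.17), had log2 fold changes with an unadjusted p above 0.1. The ratio of Lama2 to Lama4, the α chain gene of vascular basement membranes, was 0.691 ± 0.0422 in sham and 0.722 ± 0.0833 in VO and overlapped.

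Enzymes that build the laminin-binding sugar chains of α-dystroglycan were taken as 17 genes, of which 14 were tested. Of these, 12 were lower and 2 higher in VO, the median on the log2 scale was -0.08, and none passed an unadjusted p of 0.05 by limma. Of all tested genes, 8.08% passed this threshold with VO lower and 3.89% with VO higher. The most abundant were B4gat1, Dolk and Pomgnt1, with log2 fold changes of -0.28, -0.27 and -0.26 and overlapping groups. With 1 library left out they ran from -0.44 (without VO 2) to -0.12 (without VO 1), from -0.44 (without VO 3) to -0.11 (without VO 1) and from -0.37 (without VO 2) to -0.0990 (without VO 1), and B4gat1 without VO 2 and Dolk without VO 3 passed the unadjusted threshold. Of the laminin-binding integrin chains, which form the other laminin receptor of the muscle cell, 4 of 5 were tested and none passed an unadjusted p of 0.05 by limma, with log2 fold changes of 0.26 for Itga6, 0.02 for Itgb1, -0.21 for Itga7 and -0.23 for Itga3. Itga6 was higher at that threshold with TPM, fragment totals, trends removed and centring.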

How the data were processed

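The data were RNA-seq libraries of P21 RA, 3 from the sham and 3 from the VO group. The authors prepared libraries with a NEBNext Ultra kit, aligned reads with HISAT2 2.0.5, counted them per gene with featureCounts 1.5.0-p3 and computed the deposited FPKM values from counts and gene length, and the submitters' notes name GRCm38. The annotation release and the use of strand are not given in the sources used here. Gene positions equalled those of GENCODE M21 for 98.4% of 54039 shared genes. One incomplete line, the last, was left out. Deposited FPKM, multiplied by gene length, came in whole steps of constant size in each library (100% of values within 0.05), and the steps were taken as fragments.

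The library size implied by the steps was 15557400 in sham 1 and 18144100 in VO 1, against 16494342 and 16852482 fragments on genes. Median of ratios gave factors of 1.00, so that the deposited values were already on that scale and this step left them unchanged. Values were kept at a mean FPKM of at least 1 and fitted as log2(FPKM + 0.1) with limma 3.58.1 in R 4.3.3 (lmFit, eBayes with a trend), VO against sham, two-sided, with Benjamini-Hochberg adjustment and a threshold of 0.05. Fold changes on this scale understate changes of low genes. Intervals and p-values measure the spread between libraries, which were not stated to be separate animals. FPKM are not counts, so that the authors' DESeq2 1.16.1 was not used, and voom on the recovered fragments was an alternative. Counting errors cover counting alone.

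Members and lists were chosen with earlier results of these data known. The text names all 8 members, in each list of the pathway the genes with an unadjusted p under 0.05 and the 4 with the highest mean, likewise in each cell type list, and the 3 profiles nearest to Dmd and to Dag1. Of the lists, 5 genes are not reported here, which leaves fewer than 4 abundant genes named in some lists, and they were left out of the list counts, medians and sums. Symbols in the table were used as they stand. Promoters came from RefSeq (GRCm38.p6) for 7 of the 8 members, 250 bases before and 50 after a start, and motifs were searched on both strands. Windows on chromosome 18, where Dtna lies, were not used. The steps were tested on simulated data.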

Additional observations from a re-analysis of the deposited data

How the results depend on the processing

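Sgca and Dtna stayed lower in VO under every alternative run, with log2 fold changes of -0.78 to -0.16 and -0.66 to -0.07, and their unadjusted p was under 0.05 in 19 of 21 and 19 of 20 alternatives, not counting FPKM as deposited, which equals the fit reported, and VO 2 alone, whose spread comes from sham alone. The exceptions were centring on cardiomyocyte markers for both and sham 1 left out for Sgca. Adjusted p of the 2 genes ran from 0.250 to 0.960. The number of members lower at an unadjusted p under 0.05 was 2 in the fit reported (all tested genes: 1020 of 12627). It was 1 with a mean FPKM of at least 5 (6 members tested, all tested genes: 821 of 7156) and 0 after centring on cardiomyocyte markers (66 of 12627). With a library left out it was 1 (without sham 1, 574 of 12627) to 2. The count over all tested genes thus moved as well, and with TPM it was 486 of 12627 while that of the members was 2. The median over the members was -0.0121 with scaling by fragment totals, -0.0108 with VO 2 alone, an alternative chosen after the data were seen, 0.0326 with TPM, 0.38 after centring, and -0.18 (without VO 2) to -0.0384 (without VO 3) with a library left out. With TPM, the sign turned for Dmd (0.0448), Sgcd (0.0203) and Sspn (0.0655). For Sspn it turned as well with quantile normalization (0.10), scaling by fragment totals (0.0199) and trends in length and expression removed (0.0612). After centring it turned for Dmd (0.39), Sgcb (0.32), Sgcd (0.37), Sspn (0.41), B4gat1 (0.20), Dolk (0.21), Pomgnt1 (0.22), Itga3 (0.25), Itga7 (0.27) and Lamb2 (0.26). With VO 2 alone it turned for Dmd (0.23), Sspn (0.18), B4gat1 (0.0294) and Itgb1 (-0.0264). With a library left out, Dag1 ran from -0.0531 to 0.15, Sspn from -0.20 to 0.00560 and Itgb1 from -0.00834 to 0.0515. The cause of these turns was not tested.

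Libraries of the same replicate number did not deviate together (correlations of -0.108, 0.0112 and -0.0292), so that the numbers were not taken as pairs, and with the replicate block the count of lower members was 2 and the median -0.10. With 3 libraries a group, the exact permutation test of a ratio cannot give a p below 0.1, and the intervals of the 6 members without a call include 0.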

Other observations

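Cell type lists were read beside the members, by counts over their tested genes at an unadjusted p under 0.05 by limma, where 1 gene in all passed after adjustment and it belonged to none of the lists. At the unadjusted threshold 8.08% of all tested genes were lower and 3.89% higher in VO. In direction alone, 6503 of the 12627 tested genes were lower and 6124 higher. The cardiomyocyte list (most abundant genes Myl7, Actc1, Myh6 and Tnni3) had 11 of 12 genes lower in VO and a median log2 fold change of -0.47. The fibroblast list (Col3a1, Dcn, Dpt and Col1a1) had 6 of 8 genes higher and a median of 0.11. All 6 tested leukocyte genes, led by Lyz2, Cd74, Csf1r and Adgre1, were higher with a median of 0.85, of which Cd68 passed the unadjusted threshold. In the smooth muscle and pericyte list (Acta2, Rgs5, Pdgfrb and Abcc9) Acta2 was lower and Rgs5 higher at that threshold, and in the endothelial list (Pecam1, Cdh5, Tie1 and Egfl7) Cdh5 was higher. Schwann cell markers (Mbp, S100b and Sox10) summed to 6.05 to 7.71 FPKM in sham, to 6.62 and 8.33 FPKM in VO 2 and VO 1 and to 18.2 FPKM in VO 3, the library with the high adipocyte sum (Ucp1, Adipoq, Cidec and Plin1). In the skeletal muscle list (Tnni2, Actn3, Tnnt3 and Mylpf) Tnni2 was the tested gene and was lower in VO, and of the ventricular list (Myl2, Hey2 and Irx4) no gene passed.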
